A study of Mus musculus with 2 samples.

Results

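Mir335, Mir483, Mir675, Mir296 and Mir298 are 5 microRNA genes encoded at or near the imprinted genes Mest, Igf2, H19 and Gnas. They were found by their GENCODE M21 symbols and make up 5 of the 2202 microRNA genes in the deposited count tables. The tables come from 2 microRNA sequencing libraries of neonatal mouse heart, 1 per labelled animal, both from male B6CASTF1/J mice at 4 days after birth. B6CASTF1/J animals have a C57BL/6J and a CAST/EiJ parent, so their parental alleles differ in sequence, but the tables give no counts per allele. The labels give no treatment or engineered allele for either animal. They number the animals male 03 (biological replicate 1) and male 04 (biological replicate 2) under a shared donor identifier. If the animals were not separate, the spread between the libraries is technical. There is a single group, so the results below are levels in the heart and the difference between its replicates.

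An imprinted gene is transcribed mainly from the chromosome of a single parent. Mest, which encodes a hydrolase-like protein of embryonic mesoderm, and Igf2, which encodes a fetal growth factor, are transcribed from the paternal copy, whereas the noncoding RNA H19 is transcribed from the maternal copy. The Gnas region encodes the stimulatory G protein alpha subunit along with transcripts of either parental origin, among them Nespas, a paternal noncoding RNA on the strand opposite to Gnas. Mir296 and Mir298 are known to be made from a long form of Nespas, and Mir675 is cut out of H19 itself. A microRNA hairpin yields a 5p and a 3p arm, and bases 2 to 8 of the arm that is loaded into an Argonaute protein, the seed, do most of the pairing with target messages.

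The mature arms are shown because the seed sets which messages a microRNA can pair with, and because the members turn out to have no seed in common with each other. They come from RefSeq (GRCm38.p6, the assembly of mm10), where all 5 hairpins and all 10 arms were found, at the same positions as in GENCODE. Capitals mark the seed.
miR-335-5p: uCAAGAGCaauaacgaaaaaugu
miR-335-3p: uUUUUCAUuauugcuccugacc
miR-483-5p: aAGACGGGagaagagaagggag
miR-483-3p: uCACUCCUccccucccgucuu
miR-675-5p: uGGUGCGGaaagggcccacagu
miR-675-3p: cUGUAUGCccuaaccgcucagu
miR-296-5p: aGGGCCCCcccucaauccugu
miR-296-3p: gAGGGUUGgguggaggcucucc
miR-298-5p: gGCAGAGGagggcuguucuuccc
miR-298-3p: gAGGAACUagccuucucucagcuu
The 10 seeds are all different. None of them occurs at bases 2 to 8 of any other of the 1738 mature mouse microRNAs in the RefSeq table, which is not complete. With the shorter match of bases 2 to 7, miR-335-5p, miR-335-3p, miR-483-3p and miR-296-5p each had 1 partner. These partners were miR-7646-5p, miR-6986-3p, miR-3110-3p and miR-5621-3p, and the highest level among their genes was 2.37 CPM (counts per 1000000 sense counts of the library), for Mir6986 in replicate 2. Levels of microRNA genes outside the RefSeq table were not looked at for this.

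The arms differed widely in base composition. GC content was 30.4% in miR-335-5p and 36.4% in miR-335-3p, below the 50.0% to 68.2% of the 8 other arms. miR-483-5p was 95.5% purine and its partner miR-483-3p 9.52%, so this hairpin pairs a purine strand with a pyrimidine strand. The hairpins of Mir335, Mir296 and Mir298 are shown because Mir335 held most of the reads and the other pair are close neighbours. Capitals mark the 5p and 3p arms, and the counts of a gene take in reads of both.
Mir335 (chr6:30741299-30741396, plus strand): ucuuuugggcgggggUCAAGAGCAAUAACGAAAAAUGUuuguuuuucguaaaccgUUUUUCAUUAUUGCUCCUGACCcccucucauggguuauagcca
Mir296 (chr2:174267047-174267125, minus strand): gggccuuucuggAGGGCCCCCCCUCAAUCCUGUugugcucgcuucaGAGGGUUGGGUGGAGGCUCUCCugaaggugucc
Mir298 (chr2:174267504-174267585, minus strand): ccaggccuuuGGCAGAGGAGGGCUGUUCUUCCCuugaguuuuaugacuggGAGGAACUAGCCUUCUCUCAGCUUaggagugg
Mir296 and Mir298 lie 378 bases apart, yet their longest common run was 7 bases, no longer than that of unrelated pairs such as Mir335 and Mir483. No 20-base stretch of any of the 5 hairpins occurs in another annotated microRNA hairpin, while 97 of the 441 genes with 10 or more counts in total (22.0%) do have such a stretch. The 5 members thus have no identical 20-base copy in another microRNA gene to which reads could be lost. Copies with mismatches, shorter stretches and the rest of the genome were not covered by this search. Among GENCODE transcripts, exact copies of the 10 arms were found only in the members' own hairpins and, for the arms of Mir675, in H19.

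The hairpins sit in their loci in different ways. Mir335 lies in a 1316-base intron in all 7 Mest transcripts that span it. Mir483 (chr7:142654924-142654996, minus strand) lies in a 1205-base intron in all 7 spanning Igf2 transcripts and in the overlapping gene model Gm49394. Mir675 (chr7:142577064-142577147, minus strand) lies inside an exon in 3 spanning H19 transcripts, exon 1 in 2 of them, and in an intron in the fourth. GENCODE M21 has no transcript over Mir296 or Mir298. The nearest same-strand gene is Nespas, whose annotated 3′ end lies 13651 bases upstream of Mir298, and Gnas itself is on the opposite strand.

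**Figure D1:**
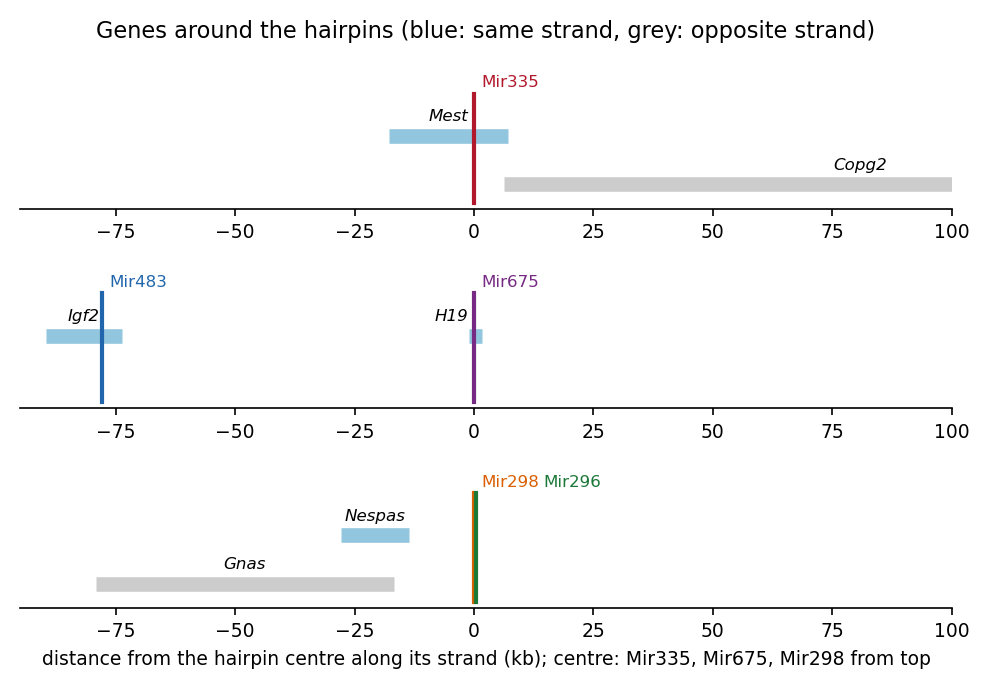
Annotated genes around the hairpins. The x axis is the distance in kb from the centre of Mir335 (top), Mir675 (middle) and Mir298 (bottom), each along the strand of its hairpin; blue bars are genes on that strand, grey bars genes on the other strand and vertical lines the hairpins. Mir335, Mir675 and Mir483 lie within Mest, H19 and Igf2, and Mir296 and Mir298 lie downstream of Nespas.

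The minimum free energy that RNAfold gave was -0.67 kcal/mol per base for Mir675, lower than in 98.0% of the 441 genes with 10 or more counts, whose median was -0.43. The other values were -0.55 for Mir296, -0.52 for Mir298, -0.46 for Mir483 and -0.45 for Mir335. Mir675 had the most stable predicted hairpin and, as given below, the fewest reads.

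Sense counts over all microRNA genes came to 4196577 in replicate 1 and 3801738 in replicate 2, or 43.8% and 40.9% of all reads in the tables. A further 38.1% and 42.3% were multi-mapped and belong to no gene's count. A read was worth 0.238 CPM in replicate 1 and 0.263 CPM in replicate 2. The cardiomyocyte markers Mir208a, Mir208b and Mir499 summed to 13054 CPM in replicate 1 and 8858 CPM in replicate 2, and are thus present in both libraries. Endothelial Mir126a stood at 109199 and 49330 CPM, and smooth muscle Mir143 and Mir145a summed to 48576 and 79468 CPM. Of the 6 neuron markers 4 had 0 counts, all 3 Mir124a genes among them, and the list summed to 0.238 and 22.1 CPM. Nearly all of this was Mir9-3, with 1 and 82 counts. Reads that match several of these genes equally would be multi-mapped and uncounted, so the 0 counts do not show absence. Intervals below are 95% intervals, Wilson for shares and exact binomial for ratios of 2 counts, and cover counting error only.

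All 5 genes had reads in both libraries, and their levels spanned more than 3 orders of magnitude. Mir335 was by far the most abundant, Mir298, Mir296 and Mir483 were of middle abundance, and Mir675 was by far the lowest of the 5. Together the 5 genes held 136163 counts in replicate 1, a share of 3.24% (interval 3.23 to 3.26), and 170542 counts in replicate 2, a share of 4.49% (4.47 to 4.51). The mean was 3.87% ± 0.88 (SD, n = 2), and all errors given as ± below are SDs over these 2 libraries. Without Mir335 the share was 0.722% in replicate 1 and 0.356% in replicate 2. The sum therefore followed Mir335, and the 4 other genes together went the opposite way between the libraries. No member had a read on the opposite strand, and counts taken without regard to strand were the same as sense counts for all 5.

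**Figure D2:**
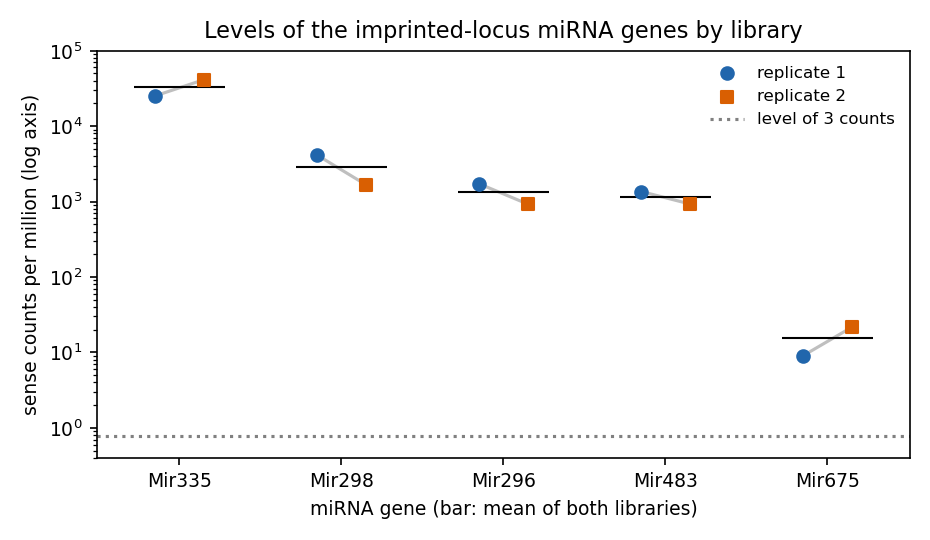
Level of each gene in each library. The y axis is CPM of sense counts on a log axis, circles are replicate 1, squares replicate 2, horizontal bars the mean of both, and the dotted line the level of 3 counts in replicate 2. Mir335 lies at 25227 and 41303 CPM, Mir298, Mir296 and Mir483 lie between 926 and 4130 CPM, and Mir675 lies at 9.05 and 21.6 CPM.

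Mir335, the microRNA of the Mest intron, has been described in human breast cancer cells as a suppressor of metastasis. It had 105866 counts in replicate 1 and 157023 in replicate 2, or 25227 and 41303 CPM, a mean of 33265 ± 11368 CPM. It ranked 9 of all 2202 genes in replicate 1 and 7 in replicate 2. Multi-mapped reads are in no gene's count, so genes with near copies may be undercounted. The ranks and shares of the 5 members may therefore be too high. Mir335 made up 77.7% of the 5 genes' reads in replicate 1 and 92.1% in replicate 2, and exceeded the 4 others together by 3.49-fold (3.45 to 3.54) and 11.6-fold (11.4 to 11.8). It was the highest member in both libraries. Mir335 alone had at least as many reads as the whole imprinted Dlk1-Dio3 cluster on chromosome 12. Its counts were 1.02 times (1.01 to 1.03) those of the 65 cluster genes in replicate 1 and 1.56 times (1.54 to 1.57) in replicate 2. The mean log2 ratio was 0.33 ± 0.43, so the excess over the cluster was within the spread between the libraries.

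Mir298 and Mir296 came next. Mir298, reported in mouse cells to act on the message of the beta-secretase Bace1, had 17332 counts in replicate 1 and 6379 in replicate 2, or 4130 and 1678 CPM (mean 2904 ± 1734). Mir296, studied in human endothelium as a promoter of growth factor receptor signalling, had 7220 and 3522 counts, or 1720 and 926 CPM (mean 1323 ± 561). Both neighbours were higher in replicate 1. Mir298 exceeded Mir296 by 2.40-fold (2.34 to 2.47) in replicate 1 and by 1.81-fold (1.74 to 1.89) in replicate 2. The order of this pair was thus the same in both libraries, with a mean log2 ratio of 1.06 ± 0.29. Reads of different hairpins can be captured unequally, and such a bias, if shared by the libraries, would be invisible here. Together the pair held 5850 CPM in replicate 1 and 2604 CPM in replicate 2.

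Mir483 and Mir675 share the Igf2 and H19 domain of chromosome 7, 77776 bases apart. Mir483, of the Igf2 intron, whose human counterpart is raised in Wilms tumours, had 5707 counts in replicate 1 and 3536 in replicate 2, or 1360 and 930 CPM (mean 1145 ± 304). Mir675, which in mouse placenta limits growth and acts on the message of the growth factor receptor Igf1r, had 38 and 82 counts. These correspond to 9.05 CPM in replicate 1 and 21.6 CPM in replicate 2 (mean 15.3 ± 8.85), above the levels of 3 counts, 0.715 and 0.789 CPM. Mir675 ranked 290 and 245 among all genes and lay under the median of 35.0 CPM over the 441 tested genes. Mir483 exceeded Mir675 by 150-fold (109 to 212) in replicate 1 and by 43.1-fold (34.6 to 54.4) in replicate 2, a mean log2 ratio of 6.33 ± 1.27. The tables hold no counts of Igf2 or H19 themselves.

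Most of the order of levels was the same in both libraries. Mir335 stood first, Mir298 next and Mir675 last in each. Mir296 and Mir483 could not be ordered: Mir296 exceeded Mir483 by 1.27-fold (1.22 to 1.31) in replicate 1, and their ratio was 0.996 (0.950 to 1.04) in replicate 2, where they differed by 14 reads. Hairpins differ in length from 73 bases for Mir483 to 98 for Mir335. Per hairpin base the order was the same, with Mir296 and Mir483 at 91.4 and 78.2 counts per base in replicate 1 and at 44.6 and 48.4 in replicate 2.

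All 5 genes differed between the 2 libraries by more than counting error. Mir298, Mir296 and Mir483 were higher in replicate 1, and Mir335 and Mir675 were lower there. The log2 ratio of replicate 1 over replicate 2, taken on CPM + 1, was 1.30 for Mir298, 0.89 for Mir296, 0.55 for Mir483, -0.71 for Mir335 and -1.17 for Mir675. Each had an adjusted p under 0.05 in a two-sided Fisher's exact test, adjusted by Benjamini-Hochberg over all 441 tested genes, and the largest was 1.5e-05 for Mir675. This test compares 2 libraries and not conditions. In the same test 251 of the 441 genes passed (56.9%), 161 of them higher in replicate 1 (36.5%) and 90 lower (20.4%), so differences of this kind were common among all genes. The 441 genes were not matched to the members in level, and genes with more counts pass this test more easily.

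**Figure D3:**
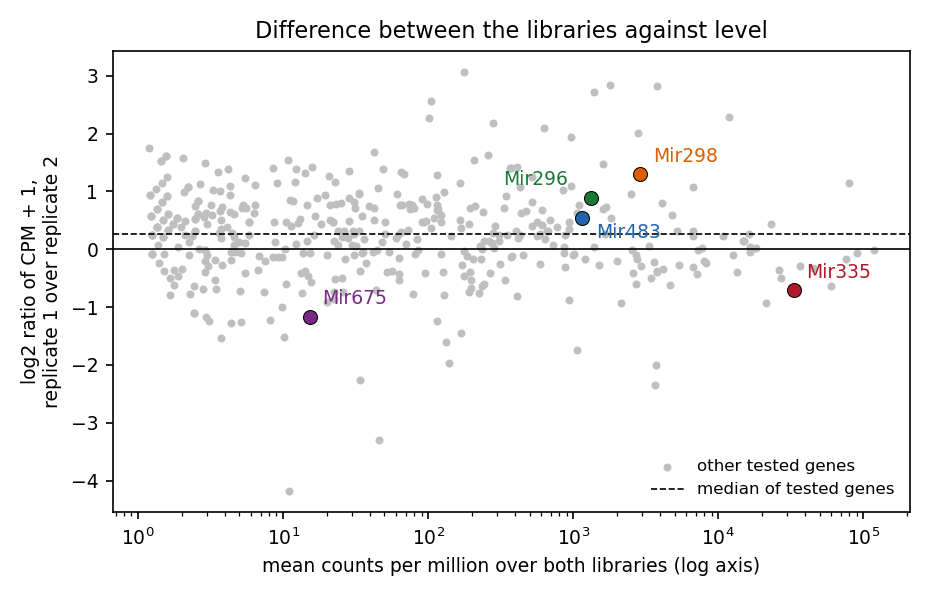
Difference between the libraries against level for the 441 tested genes. The x axis is the mean CPM over both libraries on a log axis, the y axis the log2 ratio of CPM + 1 in replicate 1 over replicate 2, grey points are the other genes and the dashed line the median of 0.26. Mir298 (1.30), Mir296 (0.89) and Mir483 (0.55) lie above the median line, and Mir335 (-0.71) and Mir675 (-1.17) below it.

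The direction of each member did not depend on the scaling. The median log2 ratio of the tested genes was 0.26, and scaling by TMM (trimmed mean of M-values) over all genes shifted the ratio of replicate 1 over replicate 2 by -0.30, before the 1 added to each CPM. With TMM the split of all called genes turned from 161 higher and 90 lower in replicate 1 to 106 higher and 135 lower. The members' ratios with TMM were 0.99 for Mir298, 0.59 for Mir296, 0.24 for Mir483, -1.02 for Mir335 and -1.45 for Mir675, with the same 3 higher and 2 lower, all past the threshold. Mir483 was nearest to 0 under both scalings.

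Against the spread between the libraries the members were not unusual. The biological coefficient of variation, edgeR's estimate of spread beyond counting error, was 0.379, which corresponds to an SD of 0.77 for a log2 ratio between 2 libraries. For edgeR's exact test TMM was recomputed over the 441 tested genes, so its ratios differ somewhat from those above, with 0.30 for Mir483 and -1.49 for Mir675. These 2 were the smallest and the largest of the members' in size, at 0.393 and 1.93 times that SD. edgeR's exact test with this spread gave an adjusted p of 1 for all 5 members, and unadjusted p-values from 0.082 for Mir675 to 0.70 for Mir483. It called 2 of the 441 genes (0.454%), Mir9-3 and Mir26a-1, which are named after their values were seen. Its spread comes from the same libraries, so few calls are built into it. Folds were also read on CPM without TMM. Of the 4 members with a mean count of at least 100, only Mir298 was then over 2-fold apart, at 2.46-fold, beside 42 of 243 such genes (17.3%). Which member passed 2-fold depended on the scaling. With TMM over all genes the log2 ratio was 0.99 for Mir298, just under 2-fold, and -1.02 for Mir335, just over 2-fold. Without TMM, Mir298 had a larger absolute log2 ratio than 89.3% of the tested genes, Mir675 than 86.4%, Mir296 than 76.9%, Mir335 than 64.9% and Mir483 than 54.6%. These shares are taken around 0, whereas the median of the tested genes was 0.26, so they favour members higher in replicate 1. Measured from that median, Mir675 lay farthest at -1.43, then Mir298 at 1.04, Mir335 at -0.97, Mir296 at 0.63 and Mir483 at 0.29.

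Genes of the same locus were compared by their own ratios. The log2 ratios of Mir296 and Mir298 differed by 0.41, beside a median of 0.59 over the 121 neighbouring pairs of tested genes on the same strand within 10 kb, of which 43 had a smaller difference. Those of Mir483 and Mir675 differed by 1.71, more than 109 of these pairs, although they lie farther apart than 10 kb. The 121 pairs were not matched to the members in level, and pairs with few counts carry more counting error. The ratio of Mir483 to Mir675 was 3.48 times (2.37 to 5.13) as large in replicate 1 as in replicate 2, and that of Mir298 to Mir296 was 1.33 times (1.26 to 1.39). The Gnas pair thus moved in the same direction and the pair of chromosome 7 in opposite directions, with 1 animal on each side.

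Some markers of other tissues also differed between these libraries. The liver marker Mir122 had 309 CPM in replicate 1 and 105 CPM in replicate 2, so it was higher in the library in which Mir298, Mir296 and Mir483 were higher. The pancreas and gut markers did not move as a set. Mir215 had 319 and 37.1 CPM and Mir192 16.4 and 5.00 CPM in replicates 1 and 2, whereas Mir375 had 4.53 and 11.8 CPM. Of the red blood cell markers, Mir451a stood at 234 CPM in both libraries and Mir144 at 117 and 63.7 CPM. Skeletal muscle Mir206 stood at 29.3 and 38.1 CPM. The part of such cells in the members' differences was not tested. In whole tissue, fewer cells of a type and less RNA per cell cannot be told apart.

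Of the 3 groups of imprinted-locus microRNAs compared, the 5 genes held the largest share in both libraries. That place was due to Mir335. The other members held 0.722% in replicate 1 and 0.356% in replicate 2, less than the Dlk1-Dio3 cluster. The Dlk1-Dio3 cluster, whose microRNAs come from maternal noncoding transcripts, held 2.48% in replicate 1 and 2.65% in replicate 2. The microRNAs in an intron of Sfmbt2, a Polycomb gene expressed from the paternal copy in mouse embryo and placenta, held 0.139% and 0.170%. The Sfmbt2 share is a lower limit, since many of these hairpins are near copies of each other and multi-mapped reads are not counted. Over the 189 genes of the 3 groups, Mir335 ranked 1 in both libraries. Mir298 ranked 3 in replicate 1 and 6 in replicate 2, Mir296 ranked 7 and 11, Mir483 ranked 8 and 10, and Mir675 ranked 58 and 54 of the 77 genes with any reads.

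**Figure D4:**
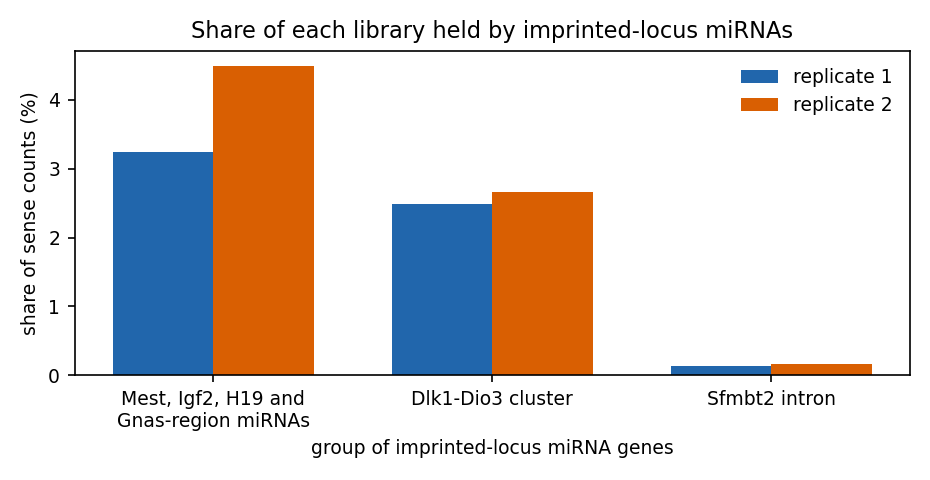
Share of sense counts held by imprinted-locus microRNA genes. The y axis is the percentage of each library's sense counts, bars are replicate 1 (blue) and replicate 2 (orange), for the 5 genes described here, the 65 Dlk1-Dio3 genes and the 119 genes in the Sfmbt2 intron. The 5 genes held 3.24% and 4.49%, the Dlk1-Dio3 cluster 2.48% and 2.65% and the Sfmbt2 group 0.139% and 0.170%. Without Mir335 the other members held 0.722% and 0.356%.

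The highest genes of the other groups put the members' levels in context. Mir127 averaged 5349 ± 707 CPM, Mir379 4147 ± 703 CPM, Mir411 3438 ± 821 CPM and Mir541 2527 ± 8.11 CPM in the Dlk1-Dio3 cluster. By its mean Mir298 lay among these 4 genes. In replicate 2 it was under all of them, at 1678 CPM beside 2533 CPM for Mir541, the lowest of the 4 there. Mir335 was above all 4 in both libraries. In the Sfmbt2 intron Mir467d averaged 591 ± 77.8 CPM, Mir467e 413 ± 161 CPM, Mir669o 194 ± 37.2 CPM and Mir669c 172 ± 23.2 CPM, all under Mir483. Between the libraries, 47 of the 65 Dlk1-Dio3 genes were tested, and 27 passed as higher and 10 as lower in replicate 1. That is 78.7% called, beside 56.9% over all tested genes (36.5% higher and 20.4% lower). Their median log2 ratio was 0.43. In the Sfmbt2 group 9 of 119 were tested, 1 was higher (Mir467d) and 7 were lower, 88.9% called, with a median of -0.39. The groups were not matched in level to all tested genes, and genes with more counts pass this test more easily. The 5 members had a median of 0.55, beside 0.26 over all tested genes, and each of the 3 groups held genes of both directions. With TMM scaling the Dlk1-Dio3 split was 18 higher and 15 lower, and the Sfmbt2 split 0 and 7, as Mir467d no longer passed, beside 106 higher and 135 lower of all 441.

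The microRNA genes nearest in level were found by the distance between log2(CPM + 1) values over the 2 libraries, which with so few points is a likeness of level. Nearest to Mir335 were Mir23a (distance 0.38) and Mir26b (0.42). Nearest to Mir298 were Mir149 (0.32) and Mir15b (0.60), and nearest to Mir296 were Mir503 (0.05) and Mir181c (0.36). Nearest to Mir483 were Mir423 (0.18) and Mir181c (0.19), and nearest to Mir675 were Mir106a (0.33) and Mir1968 (0.45). Mir503, the closest match, had 1769 CPM in replicate 1 and 945 CPM in replicate 2, beside 1720 and 926 CPM for Mir296. The only other annotated microRNA gene within 100 kb of any member was Gm27591, near Mir296 and Mir298 on the opposite strand, with 0 counts in both libraries.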

How the data were processed

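Total RNA from 2 hearts was sequenced as microRNA libraries of size range under 30, per the labels. The deposited tables hold raw counts per microRNA gene. Per the deposited description files, reads were aligned to mm10 and the genes are those of GENCODE M21. For the aligner and the read filters, the sources used here give nothing. Loss of CAST reads that differ from mm10 was not tested. Each table has counts without regard to strand, on the gene's strand (sense) and on the opposite strand, an assignment read from the values. Lines that name no gene, 56.2% of reads in replicate 1 and 59.1% in replicate 2, stayed out of the library totals. All 2202 gene IDs matched GENCODE M21.

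CPM are sense counts over the library's sense total. Genes with 10 or more counts over both libraries were tested by Fisher's exact test (scipy 1.17.1, Python 3.11.15), with p-values adjusted by Benjamini-Hochberg and called under 0.05. A quasi-likelihood test is not possible, as 1 library a side leaves no residual degrees of freedom. The test was also run on simulated counts with counting error only, so that check cannot speak to the spread between libraries. Spread was computed from edgeR's common dispersion over 344 genes that reached 10 counts in each of the libraries (edgeR 4.0.16, R 4.3.3). DESeq2 1.42.0 gave alternative size factors. Folds came from RNAfold 2.7.2, and shared windows were 20 bases long.

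The members and lists were chosen with earlier results of these data known. Named are the 5 members, microRNA genes within 100 kb, the 2 genes nearest in level to each, genes sharing a seed, the 4 most abundant genes of the other imprinted groups and the cell type markers.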

Additional observations from a re-analysis of the deposited data

How the results depend on the processing

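Pseudocounts of 0.1 and 10 CPM and no count minimum were also run, but neither can change the direction of a ratio. Counts without regard to strand changed only the library totals, as the members' own counts were the same. The directions of all 5 members' ratios held under these totals, TMM scaling, DESeq2 scaling and a library total without Mir126a. All 5 stayed past Fisher's threshold in every one of these settings. The total without Mir126a was chosen after seeing the data. Under edgeR's exact test, with TMM recomputed over the tested genes, the log2 ratios of replicate 1 over replicate 2 were -0.96 for Mir335, 0.30 for Mir483, -1.49 for Mir675, 0.65 for Mir296 and 1.05 for Mir298, with an adjusted p of 1 for each. That test called 2 genes in place of 251, since it adds the spread between the same 2 libraries to counting error. The 5 genes' summed mean of 38653 CPM became 50055 CPM with counts without regard to strand and 16274 CPM with all reads as the library total, as the totals differ. By single library it ran from 32446 to 44859 CPM. The mean log2 ratio of Mir296 over Mir483 was 0.17 and ran from -0.0057 to 0.34 by single library, so their order rests on replicate 1. The log2 ratio of Mir298 over Mir296 ran from 0.86 to 1.26. A ratio between the libraries cannot be formed without either of them. No paired analysis was possible because there is a single group. At 38 and 82 counts, Mir675 is the member that depth limits most.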
